A study of Homo sapiens with 18 samples.

Results

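The genes described here are 10 members of the feedback machinery of the RAS to ERK mitogen-activated protein (MAP) kinase pathway and its output: the phosphatase genes DUSP4, DUSP5 and DUSP6, the Sprouty genes SPRY1, SPRY2 and SPRY4, the Sprouty-related genes SPRED1 and SPRED2, and the ERK-responsive genes ETV5 and PHLDA1. They were taken by name from a table of 37347 rows, in which each of the 10 had 1 row. The list was selected on measured values of these libraries: DUSP4 was much lower with the drug, and PHLDA1 differed between guides. DUSP4 is therefore given without a test wherever drug and vehicle are compared, and PHLDA1 wherever guides are compared. For the same reason no member was tested for the drug in control cells or for guide 2 against guide 1. The remaining tests of DUSP4 and PHLDA1 use the same libraries as that choice. Their p-values, and counts of called members that include them, are therefore not independent of it.

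The cells were 16D, a castration-resistant human prostate cancer line, which received Cas9 and a guide by lentivirus. A control guide was directed to AAVS (sgAAVS), and guides 1 and 2 (sgOGDHL_1, sgOGDHL_2) to OGDHL, a gene of the 2-oxoglutarate dehydrogenase family. Culture then ran for 6 weeks with vehicle (DMSO) or with enzalutamide (Enza) at 10 µM, an antiandrogen drug. The 6 groups held 3 RNA sequencing libraries each, 18 in all, and every group shared the line, Cas9 and the virus. The labels do not say whether the infected cells were a pool or a clone, nor that replicates were separate cultures, so the p-values cover only the spread between these libraries, which may be technical.

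In the pathway, growth factor receptors load RAS with GTP, and RAS drives the kinases RAF, MEK and ERK in turn. Active ERK induces its own brakes: DUSP phosphatases remove phosphate from MAP kinases, and Sprouty and SPRED proteins act near the receptors, RAS and RAF. The mRNA of these genes is widely read as a record of ERK output. In prostate cancer cells the pathway is known to interact with androgen signalling.

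Levels are in TPM, a share of all transcripts that is corrected for gene length, with the mean ± SD over 3 libraries. TPM keeps no sequencing depth, so the depth behind a value is unknown. Differences are on the log2(TPM + 1) scale, with the standard error (SE) of the fit. That scale compresses members under 1 TPM. A gene was called where its adjusted p, from limma over 13416 genes, was under 0.05. DUSP4, DUSP5, DUSP6, SPRY1, SPRY2, SPRY4, SPRED2 and PHLDA1 reached 1 TPM in at least 3 libraries and entered the fit, while SPRED1 and ETV5 did not. SPRY4 reached 1 TPM only in control and guide 2 enzalutamide libraries, and DUSP5 and DUSP6 only there and in vehicle libraries labelled guide 2. They entered the fit through groups where they were high, so their tests, and counts of called members that include them, are not independent of the filter.

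Facts of the libraries bear on what follows. OGDHL had 2.15 ± 0.0357 TPM in control vehicle libraries, 0.849 ± 0.445 TPM with guide 1 and 3.03 ± 0.364 TPM in the vehicle libraries labelled guide 2. In the latter, the targeted transcript was thus higher than in controls, against the label, and its level does not measure cutting of the DNA. In enzalutamide OGDHL had 3.37 ± 0.363, 1.03 ± 0.104 and 1.74 ± 0.0908 TPM in control, guide 1 and guide 2 libraries. The vehicle libraries labelled guide 2 also listed 1407 to 1630 rows at 0, against 3042 to 4498 in the other 15 libraries. Transcripts encoded in mitochondria took 73.8%, 69.9% and 57.2% of the TPM in replicates 1, 2 and 3 of guide 1 in vehicle, and 50.1% to 62.3% elsewhere. A larger mitochondrial share lowers the TPM of all other genes, so each comparison was repeated with median-of-ratios scaling, which sets the typical gene equal between libraries. The luminal marker KRT18 was present (198 ± 5.78 TPM in control vehicle libraries), and 6 luminal markers summed to 833 TPM or more in every library. The summed TPM of 3 basal markers was 0.349 to 0.394 in the vehicle libraries labelled guide 2, 0.198 to 0.235 in guide 1 enzalutamide libraries and at most 0.156 elsewhere, with TP63 under 0.1 TPM throughout. The 4 fibroblast markers summed to 3.72 to 8.64 TPM, mostly COL1A1, with COL1A2 and DCN under 0.1 TPM throughout. LUM, a fibroblast marker, had 1.02 ± 0.135 TPM in guide 1 enzalutamide libraries, 0.434 ± 0.0899 TPM in control ones and 0.169 ± 0.00644 TPM in guide 2 ones. In vehicle it was listed at 0 with the control guide, with means of 0.00518 TPM for guide 1 and 0.00454 TPM for guide 2. The part of these markers in the results was not tested.

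Because Sprouty genes went in opposite directions with the drug, the DNA upstream of their starts is shown first. The stretches are from RefSeq on GRCh38.p14, which held windows for 7 of the 10 members. Each begins 250 bases before a RefSeq start and is cut where a GENCODE release 29 exon begins. The SPRY1 stretch is at chr4:123396545-123396794 on the plus strand, the SPRY2 stretch at chr13:80341127-80341376 on the minus strand, and the SPRY4 stretch at chr5:142324418-142324497 on the minus strand, inside the span of the longer SPRY4 transcripts. Capitals mark GGAA on either strand, the core of sites for ETS factors, the family of ETV5 that ERK signalling acts on.
SPRY1: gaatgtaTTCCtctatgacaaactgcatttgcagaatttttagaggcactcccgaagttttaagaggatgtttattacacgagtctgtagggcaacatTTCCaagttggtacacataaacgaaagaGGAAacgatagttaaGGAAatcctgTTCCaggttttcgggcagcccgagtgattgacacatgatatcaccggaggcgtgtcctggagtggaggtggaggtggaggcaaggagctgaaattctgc
SPRY2: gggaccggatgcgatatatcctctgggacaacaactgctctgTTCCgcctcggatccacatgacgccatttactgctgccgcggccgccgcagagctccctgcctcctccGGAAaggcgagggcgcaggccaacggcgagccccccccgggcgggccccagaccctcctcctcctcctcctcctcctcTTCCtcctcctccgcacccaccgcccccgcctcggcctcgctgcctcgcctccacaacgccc
SPRY4: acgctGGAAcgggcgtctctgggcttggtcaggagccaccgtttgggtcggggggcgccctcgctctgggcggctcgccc

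GGAA occurred 5 times in the SPRY1 stretch, 3 times in that of SPRY2 and 1 time in the 80 bases of SPRY4. It is common: 92.7% of 35116 RefSeq windows of 250 bases and 59.3% of the same windows shortened to 80 bases held it. The longer ETS letters CCGGAA, which contain GGAA, occurred 1 time for SPRY2 and in 14.5% of windows of 250 bases. TGAATGAA and TGAATGGA, the octamers bound by CIC, a repressor that ERK signalling relieves, were in none of the 3 stretches, nor were the letters TGANTCA of AP-1 sites. Among windows of 250 bases, 1.40% held the first octamer, 0.832% the second and 6.57% TGANTCA, each searched on both strands. These are matches of letters in short windows and say nothing of binding.

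DUSP4 (chromosome 8, 29333064 to 29350668, minus strand, GRCh38) encodes a nuclear phosphatase of MAP kinases and was the most abundant member in vehicle. Control vehicle libraries had 50.8, 50.1 and 51.8 TPM and control enzalutamide libraries 1.78, 1.14 and 1.22 TPM. Guide 1 cells stood at 26.7, 33.0 and 50.1 TPM without the drug and at 1.65, 1.55 and 1.41 TPM with it. Guide 2 cells stood at 30.0, 27.6 and 23.4 TPM without it and at 2.41, 2.24 and 2.20 TPM with it. The lowest vehicle library was thus far above the highest enzalutamide library with each guide. As a description of what chose the list, the differences were -4.46 (SE 0.17) in control cells, -3.84 (SE 0.17) with guide 1 and -3.08 (SE 0.17) with guide 2.

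In vehicle DUSP4 fell in the libraries labelled guide 2 (difference -0.90, limma adjusted p = 1.7e-04, or -1.11 with median-of-ratios scaling, adjusted p = 1.8e-11), with no overlap of the groups. The call with guide 1 in vehicle (-0.51, adjusted p = 0.021) was in the libraries with the high mitochondrial share, and replicate 3, at the usual share, was level with controls. With median-of-ratios scaling the 3 guide 1 libraries were at 44.6, 46.0 and 47.5 scaled TPM and the control libraries at 47.0, 46.2 and 48.5. That difference was -0.04 (adjusted p = 0.55). In enzalutamide DUSP4 did not pass with guide 1 (0.10, adjusted p = 0.83) or guide 2 (0.47, adjusted p = 0.26). It passed with median-of-ratios scaling for both, at 0.16 (adjusted p = 0.019) and 0.55 (adjusted p = 2.4e-06). These guide tests of DUSP4 use libraries whose DUSP4 levels chose the list, so their p-values are not independent of that choice.

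**Figure D1:**
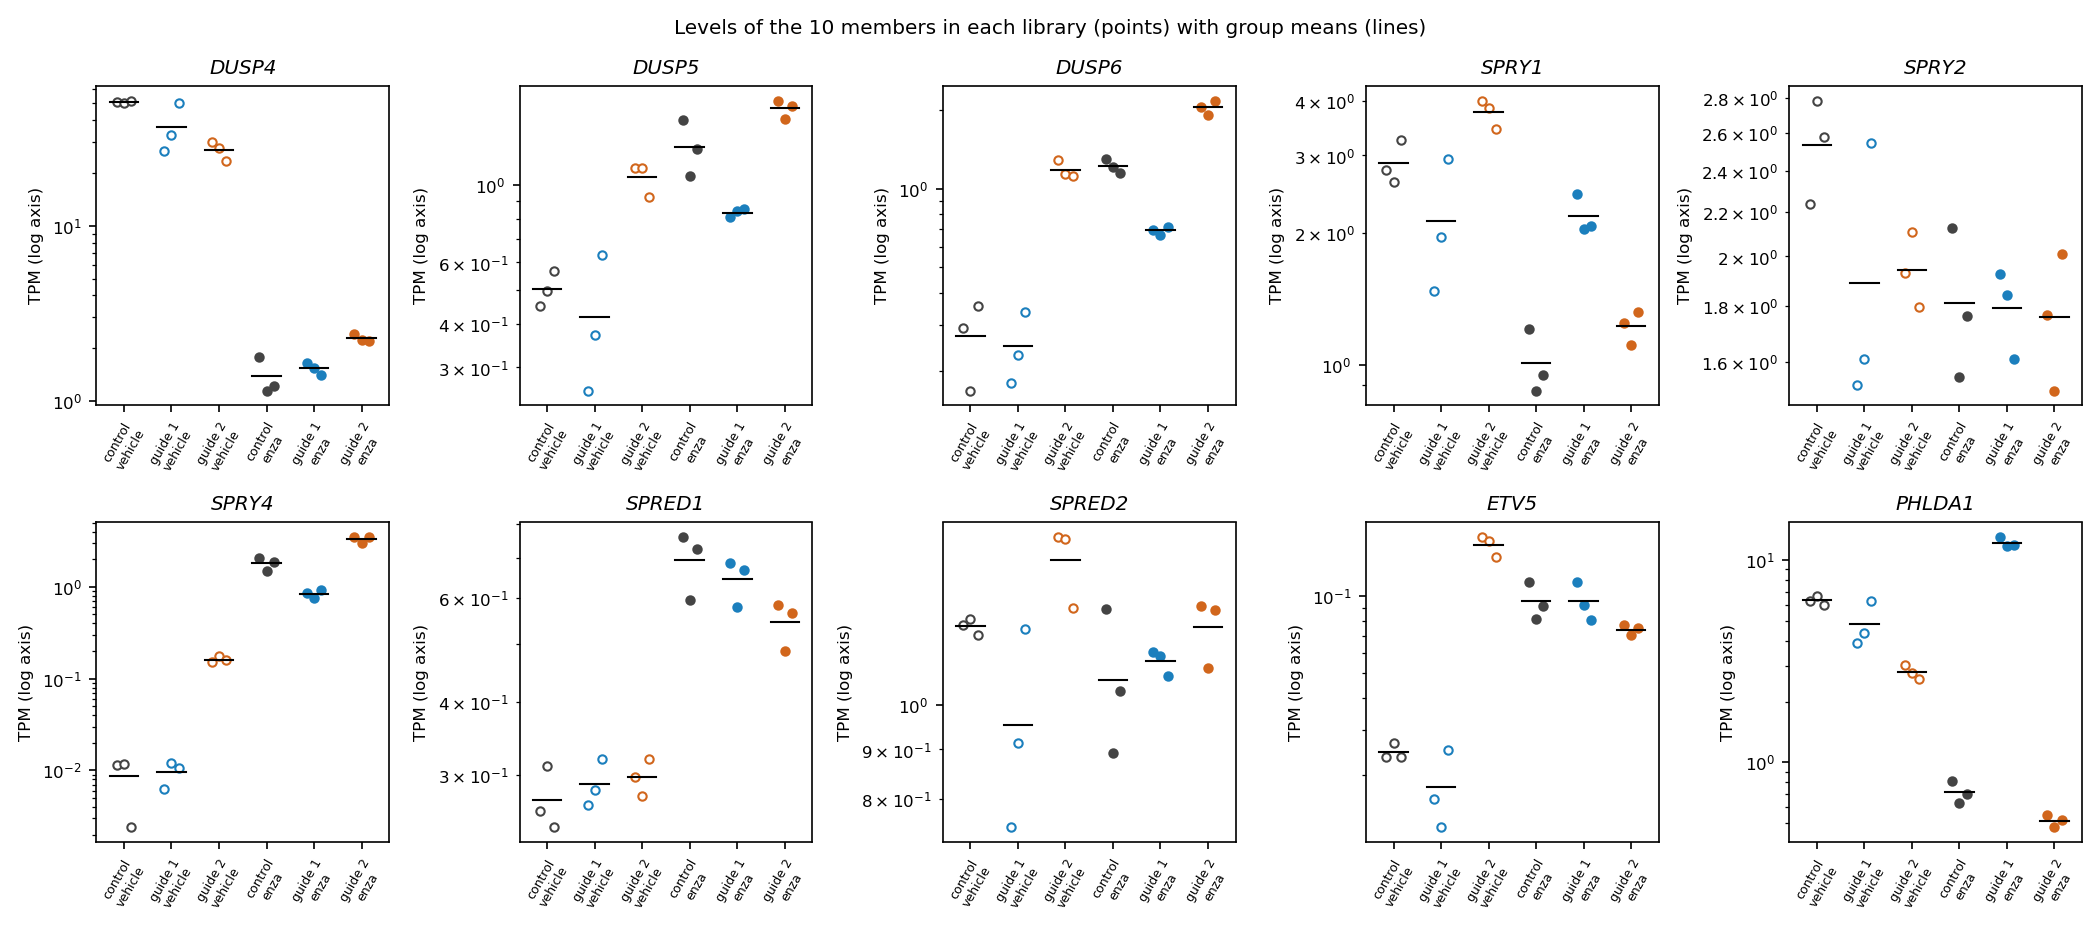
TPM (log axis, a separate range for each gene) of the 10 members in the 18 libraries; open points are vehicle, filled points enzalutamide, and lines group means. DUSP4 is lower and SPRY4 and SPRED1 higher in every enzalutamide library than in any vehicle library, and PHLDA1 is highest in the 3 guide 1 libraries in enzalutamide.

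DUSP5 and DUSP6, which encode a nuclear and a cytoplasmic phosphatase that act mainly on ERK, went the other way from DUSP4. DUSP6 (chromosome 12, 89347232 to 89353271) had 0.293, 0.169 and 0.355 TPM in control vehicle libraries and 1.30, 1.21 and 1.15 TPM in control enzalutamide libraries. Guide 1 vehicle libraries had 0.180, 0.232 and 0.338 TPM, and those with the drug 0.695, 0.667 and 0.716 TPM. Vehicle libraries labelled guide 2 had 1.28, 1.14 and 1.11 TPM, and those with the drug 2.06, 1.91 and 2.17 TPM. Every enzalutamide library was above every vehicle library of its own guide, and guide 2 vehicle libraries were near control enzalutamide libraries.

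DUSP5 (chromosome 10, 110497838 to 110511544) had 0.505 ± 0.0601, 0.419 ± 0.190 and 1.06 ± 0.113 TPM in vehicle with the control guide, guide 1 and guide 2. In enzalutamide it had 1.29 ± 0.238, 0.834 ± 0.0219 and 1.66 ± 0.103 TPM. The order of the groups was the same as for DUSP6 in enzalutamide, with guide 1 lowest and guide 2 highest.

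Of the Sprouty proteins, which restrain signalling from receptor tyrosine kinases, SPRY4 (chromosome 5, 142310427 to 142326455) varied most. It had 0.0115, 0.0119 and 0.00240 TPM in control vehicle libraries and 0.00629, 0.0121 and 0.0106 TPM with guide 1 in vehicle. The vehicle libraries labelled guide 2 had 0.150, 0.176 and 0.158 TPM. In enzalutamide the levels were 2.07, 1.5 and 1.86 TPM with the control guide, 0.849, 0.750 and 0.919 TPM with guide 1 and 3.45, 3.00 and 3.49 TPM with guide 2. No 2 enzalutamide groups overlapped, and all were above every vehicle library. SPRY4-AS1, an antisense gene whose span overlaps that of SPRY4, was at or under 0.00165 TPM in every library; the strand setting of the counting is not stated, so reads of such pairs cannot be told apart.

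SPRY1 (chromosome 4, 123396795 to 123403760) followed another pattern. Control cells had 2.78, 2.62 and 3.25 TPM without the drug and 1.21, 0.875 and 0.951 TPM with it. Guide 2 cells had 4, 3.84 and 3.45 TPM without it and 1.24, 1.11 and 1.32 TPM with it, again with no overlap. Guide 1 cells had 1.47, 1.96 and 2.94 TPM without it and 2.45, 2.05 and 2.07 TPM with it, and these overlapped. SPRY2 (chromosome 13, 80335976 to 80340951) varied least of the 3, with group means of 1.76 to 2.53 TPM.

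The SPRED proteins bind neurofibromin, the RAS GTPase-activating protein, and bring it to RAS. SPRED2 (chromosome 2, 65310851 to 65432637) had group means of 0.953 to 1.41 TPM. SPRED1 (chromosome 15, 38252326 to 38357249) had 0.273 ± 0.0348, 0.290 ± 0.0268 and 0.298 ± 0.0213 TPM in vehicle with the control guide, guide 1 and guide 2. In enzalutamide it had 0.694 ± 0.0873, 0.645 ± 0.0574 and 0.545 ± 0.0509 TPM. No enzalutamide library overlapped a vehicle library. In a limma fit of all 26900 genes, with no filter on low values, SPRED1 rose with enzalutamide in guide 1 cells (0.35, adjusted p = 3.2e-05) and in guide 2 cells (0.25, adjusted p = 8.4e-05).

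ETV5 (chromosome 3, 186046308 to 186110318), a PEA3-family ETS transcription factor gene induced by ERK signalling, was the least abundant member in enzalutamide. It had 0.0236, 0.0268 and 0.0235 TPM in control vehicle libraries, 0.0162, 0.0126 and 0.0252 TPM with guide 1 and 0.169, 0.163 and 0.142 TPM in the vehicle libraries labelled guide 2. In enzalutamide the means were 0.0954 ± 0.0164, 0.0951 ± 0.0163 and 0.0739 ± 0.00319 TPM in the same order of guides. ETV5 was thus higher in enzalutamide than in vehicle with the control guide and guide 1, and lower with guide 2. In the fit with no filter it rose with guide 1 (0.10, adjusted p = 3.8e-05) and fell with guide 2 (-0.11, adjusted p = 3.1e-06), changes of a transcript whose highest library was at 0.169 TPM. DGKG, which overlaps it, was at or under 0.00926 TPM.

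PHLDA1 (chromosome 12, 76025447 to 76033932) encodes a protein with a pleckstrin homology-like domain and is induced by ERK signalling. Control cells had 6.31, 6.65 and 6.02 TPM without the drug and 0.805, 0.627 and 0.700 TPM with it. In guide 1 cells the levels were 3.88, 4.36 and 6.32 TPM without it and 13.0, 11.8 and 11.8 TPM with it. In guide 2 cells they were 3.05, 2.76 and 2.59 TPM without it and 0.549, 0.478 and 0.521 TPM with it. The antisense gene PHLDA1-AS1 reached at most 0.187 TPM in the guide 1 enzalutamide libraries and at most 0.470 TPM in any library. By mean the order was guide 1 in enzalutamide, control, guide 1 and guide 2 in vehicle, then control and guide 2 in enzalutamide; control and guide 1 in vehicle overlapped, and no other neighbours did. As a description of what chose the list, guide 2 less guide 1 was -3.12 (SE 0.12) in enzalutamide and -0.60 (SE 0.12) in vehicle, or -1.16 in vehicle with median-of-ratios scaling.

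For the drug in control cells, which is described without a test, differences were 0.60 (SE 0.088) for DUSP5, 0.80 (SE 0.067) for DUSP6 and 1.47 (SE 0.069) for SPRY4. They were -0.95 (SE 0.13) for SPRY1, -2.10 (SE 0.12) for PHLDA1, -0.33 (SE 0.12) for SPRY2 and -0.10 (SE 0.082) for SPRED2. With SPRED1 and ETV5, whose means were higher in enzalutamide, the 10 members split into 5 higher and 5 lower by mean. KLK3, the gene of prostate-specific antigen and a classic androgen-responsive gene, had 379 ± 5.70 TPM in control vehicle libraries and 58.6 ± 7.92 TPM in control enzalutamide libraries. The most abundant member changed with the drug: DUSP4 led in vehicle, while SPRY2 and SPRY4, with means of 1.81 TPM each, led in control enzalutamide libraries.

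Enzalutamide against vehicle was tested with guide 1. DUSP5, DUSP6, SPRY4 and PHLDA1 rose, and SPRY1, SPRY2 and SPRED2 did not pass. SPRY4 rose by 0.86 (SE 0.069, limma adjusted p = 6.3e-08), DUSP6 by 0.44 (SE 0.067, adjusted p = 1.6e-04), DUSP5 by 0.38 (SE 0.088, adjusted p = 0.0056) and PHLDA1 by 1.20 (SE 0.12, adjusted p = 8.3e-07). The PHLDA1 p-value is not independent of the choice of the list, which used its levels in these libraries. Those of SPRY4, DUSP6 and DUSP5, and counts with them, are not independent of the filter. The 4 higher, PHLDA1 among them, and 0 lower of 7 stood beside 26.3% of all genes called higher and 3.54% lower. The median of the 7 was 0.38 beside 0.23 for all genes. With median-of-ratios scaling 4 rose and 2 fell, SPRY1 (-0.17, adjusted p = 0.021) and SPRY2 (-0.25, adjusted p = 0.0023), beside 24.5% and 23.9% of all genes. These values rest in part on guide 1 vehicle replicates 1 and 2. With replicate 3 as the only vehicle library, the differences were 0.17 for DUSP5, 0.34 for DUSP6, 0.86 for SPRY4 and 0.85 for PHLDA1. In a fit of only the guide 1 libraries, with all replicates kept, DUSP5 did not pass (0.38, limma adjusted p = 0.090). Without replicate 3, SPRY1 (0.23, adjusted p = 0.039) and SPRED2 (0.20, adjusted p = 0.020) passed. KLK3 had 314 ± 122 TPM in guide 1 vehicle libraries and 834 ± 58.4 TPM in guide 1 enzalutamide libraries, higher with the drug where control cells were lower. Whether this bears on PHLDA1 was not tested.

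With guide 2, DUSP5, DUSP6 and SPRY4 rose in enzalutamide and SPRY1 and PHLDA1 fell. SPRY4 rose by 1.89 (SE 0.069, limma adjusted p = 5.4e-14), DUSP6 by 0.48 (SE 0.067, adjusted p = 7.3e-06) and DUSP5 by 0.37 (SE 0.088, adjusted p = 0.0015). SPRY1 changed by -1.10 (SE 0.13, adjusted p = 1.0e-06) and PHLDA1 by -1.32 (SE 0.12, adjusted p = 2.5e-08). For PHLDA1 the p-value is again not independent of the choice of the list. Those of SPRY4, DUSP6 and DUSP5, and counts with them, are again not independent of the filter. The 3 higher and 2 lower of 7, PHLDA1 among the lower, stood beside 11.2% and 48.3% of all genes, with a median of -0.10 against -0.30. With median-of-ratios scaling 5 were higher and 2 lower, beside 36.9% and 37.3% of all genes; SPRY2 (0.15, adjusted p = 0.029) and SPRED2 (0.09, adjusted p = 0.0055) then passed with a changed sign. All 5 calls rest on the vehicle libraries labelled guide 2, which stand apart as a group.

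**Figure D2:**
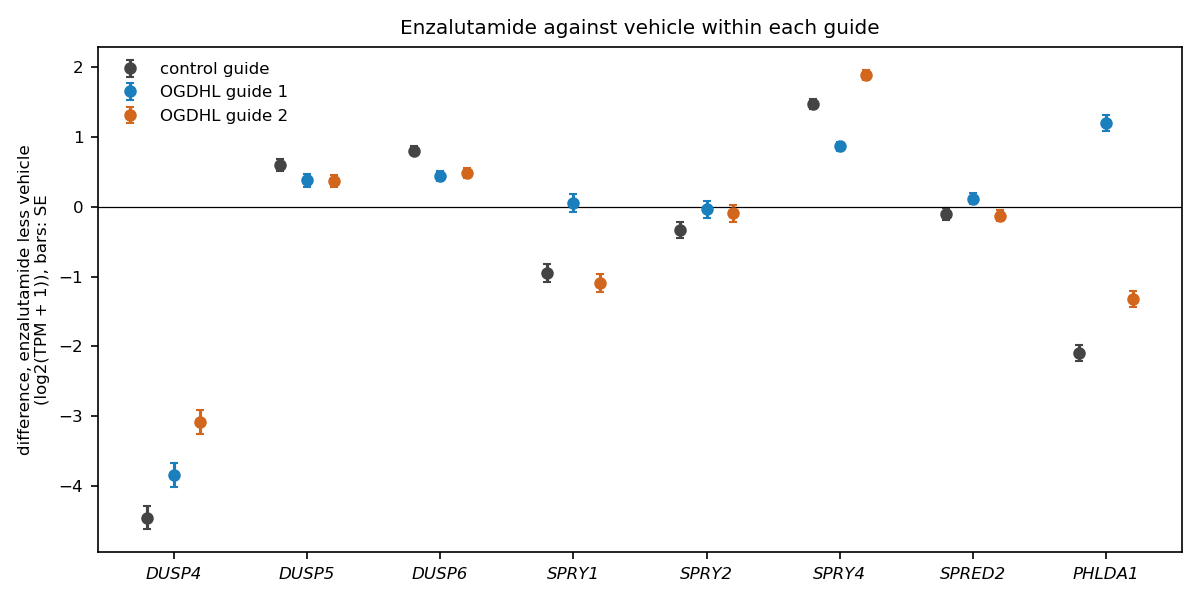
Difference between enzalutamide and vehicle on the log2(TPM + 1) scale for the 8 members in the fit, with each guide; bars are the SE of the fit over 18 libraries. SPRY4 lies above 0 with each guide and DUSP4 below, and PHLDA1 lies at 1.20 with guide 1 but at -2.10 and -1.32 with the control guide and guide 2.

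Whether the drug response differed from that of control cells was tested by interaction. With guide 1, the SPRY4 response was smaller than in control cells (-0.61, limma adjusted p = 7.2e-04), as was that of DUSP6 (-0.36, adjusted p = 0.029), and that of SPRY1 was higher by 1.00 (adjusted p = 0.0024). The 1 higher and 2 lower of 6 stood beside 5.67% and 1.27% of all genes. With median-of-ratios scaling 1 was higher and 3 lower, with DUSP5 added (-0.31, adjusted p = 8.2e-04), beside 16.5% and 17.1% of all genes. SPRY4 and SPRY1 passed with guide 1 vehicle replicate 3 alone too, at -0.61 (adjusted p = 0.0042) and 0.64 (adjusted p = 0.011). The DUSP6 interaction ended when control vehicle replicate 1 (-0.38) or 2 (-0.31) was left out, and likewise guide 1 vehicle replicate 2 (-0.37), control enzalutamide replicate 2 (-0.37) or 3 (-0.39), or guide 1 enzalutamide replicate 1 (-0.37), 2 (-0.35) or 3 (-0.37). It also ended with a pseudocount of 0.1 (adjusted p = 0.10) and in a fit of only its own libraries (adjusted p = 0.060). Without guide 1 vehicle replicate 3, SPRY2 (0.45) and SPRED2 (0.31) passed. Tests of SPRY4, DUSP6 and DUSP5, and counts with them, are not independent of the filter here either.

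With guide 2 the interaction was 0.42 for SPRY4 (limma adjusted p = 0.0022) and -0.32 for DUSP6 (adjusted p = 0.011), and DUSP5, SPRY1, SPRY2 and SPRED2 did not pass. The sign for SPRY4 depended on the pseudocount: with 0.1 in place of 1 it was -0.42 (adjusted p = 0.074). SPRY4 had 0.161 ± 0.0134 TPM in the vehicle libraries labelled guide 2 and 0.00859 ± 0.00536 TPM in control ones. DUSP6 was not called with median-of-ratios scaling (-0.11, adjusted p = 0.18) or with a pseudocount of 5 (-0.048, adjusted p = 0.21). The 1 higher and 1 lower of 6 stood beside 8.71% and 34.9% of all genes, and with median-of-ratios scaling 3 were higher and 0 lower, beside 31.9% and 33.9%. These interactions rest on the vehicle libraries labelled guide 2, which stand apart as a group. The calls of SPRY4 and DUSP6, and counts with them, are also not independent of the filter.

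In vehicle, guide 1 was compared with the control guide. DUSP4, SPRY1 (-0.34, limma adjusted p = 0.036) and SPRY2 (-0.30, adjusted p = 0.040) were called lower and no member higher, beside 57.5% of all genes called lower and 0.306% higher, so the members' share was no larger than the background. With median-of-ratios scaling 1 of 7 was higher, SPRED2 (0.07, adjusted p = 0.045), and 0 lower, beside 23.4% and 21.1% of all genes. Leaving out control vehicle replicate 1, 2 or 3 or guide 1 vehicle replicate 1 or 2 ended all 3 calls, with DUSP4 at -0.52 to -0.32. With guide 1 replicate 3 alone no member passed, at -0.02 for DUSP4, 0.02 for SPRY1 and 0.0066 for SPRY2. Without that replicate, DUSP5 (-0.20) and SPRED2 (-0.27) were called lower too. DUSP4 helped to choose the list, so its call and the counts with it are not independent of that choice. PHLDA1, not tested, differed by -0.34, or 0.06 with median-of-ratios scaling.

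The vehicle libraries labelled guide 2 had higher DUSP6, DUSP5 and SPRY4 and lower DUSP4 than control vehicle libraries. DUSP6 rose by 0.78 (SE 0.067, limma adjusted p = 1.7e-08), DUSP5 by 0.45 (SE 0.088, adjusted p = 2.8e-04) and SPRY4 by 0.20 (SE 0.069, adjusted p = 0.017). SPRY1 (0.30, adjusted p = 0.056) and SPRY2 (-0.26, adjusted p = 0.069) did not pass. The 3 higher and 1 lower of 7 stood beside 41.0% and 18% of all genes, so such calls were common. DUSP4, the 1 lower, helped to choose the list, and DUSP6, DUSP5 and SPRY4 entered the fit through groups where they were high. Their calls and these counts are not independent of that choice and of the filter. With median-of-ratios scaling 3 were higher and 2 lower, with SPRY2 added (-0.40, adjusted p = 1.7e-05), beside 40.1% and 37.3% of all genes. SPRY4 did not pass without guide 2 vehicle replicate 2 (0.19, adjusted p = 0.050) or with a pseudocount of 5 (0.043, adjusted p = 0.18), and SPRY1 passed without control vehicle replicate 3 (0.36, adjusted p = 0.043). In these 3 libraries the summed TPM of 4 leukocyte markers was 11.4 to 12, against 0.444 to 0.861 in the other 15, with CD68 at 10.6 ± 0.392 TPM and PTPRC and CD3E near 0. The part of this in the result was not tested. PHLDA1, not tested, differed by -0.95.

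In enzalutamide the guides went in opposite directions for SPRY4 and DUSP6. With guide 1, SPRY4 fell by 0.61 (SE 0.069, limma adjusted p = 9.0e-06), DUSP6 fell by 0.39 (SE 0.067, adjusted p = 8.7e-04) and DUSP5 fell by 0.32 (SE 0.088, adjusted p = 0.036), while SPRY1 rose by 0.67 (SE 0.13, adjusted p = 0.0025). With guide 2, SPRY4 rose by 0.62 (SE 0.069, adjusted p = 3.5e-05) and DUSP6 by 0.46 (SE 0.067, adjusted p = 8.6e-04), and the other 5 did not pass. The DUSP6 call with guide 2 was lost with a pseudocount of 0.1 (0.70, adjusted p = 0.066). Both comparisons share the 3 control libraries. SPRY4, DUSP5 and DUSP6 entered the fit through groups where they were high. Their calls, and the counts below that include them, are therefore not independent of the filter. The 1 higher and 3 lower of 7 with guide 1 stood beside 2.15% and 4.91% of all genes, and the 2 higher and 0 lower with guide 2 beside 0.678% and 0.574%. The medians of the 7 were -0.01 and 0.22, beside -0.06 and -0.08 for all genes.

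Median-of-ratios scaling kept the signs of these calls. It gave 3 higher and 3 lower with guide 1, beside 18.1% and 17.4% of all genes, and 6 higher and 0 lower with guide 2, beside 10.3% and 7.26%. The added calls with guide 2 were DUSP4, DUSP5 (0.29, adjusted p = 1.5e-04), SPRED2 (0.16, adjusted p = 4.9e-04) and SPRY1 (0.21, adjusted p = 0.017). The DUSP5 call with guide 1 ended without control enzalutamide replicate 1 (-0.24) or 3 (-0.32) or guide 1 enzalutamide replicate 1 (-0.31), 2 (-0.32) or 3 (-0.32), and with the replicate number as a block in the fit of all libraries (adjusted p = 0.057). With 0.1 as the pseudocount it was lost too (-0.56, adjusted p = 0.11). PHLDA1, given without a test, differed from control by 2.95 (SE 0.12) with guide 1 and by -0.17 (SE 0.12) with guide 2.

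**Figure D3:**
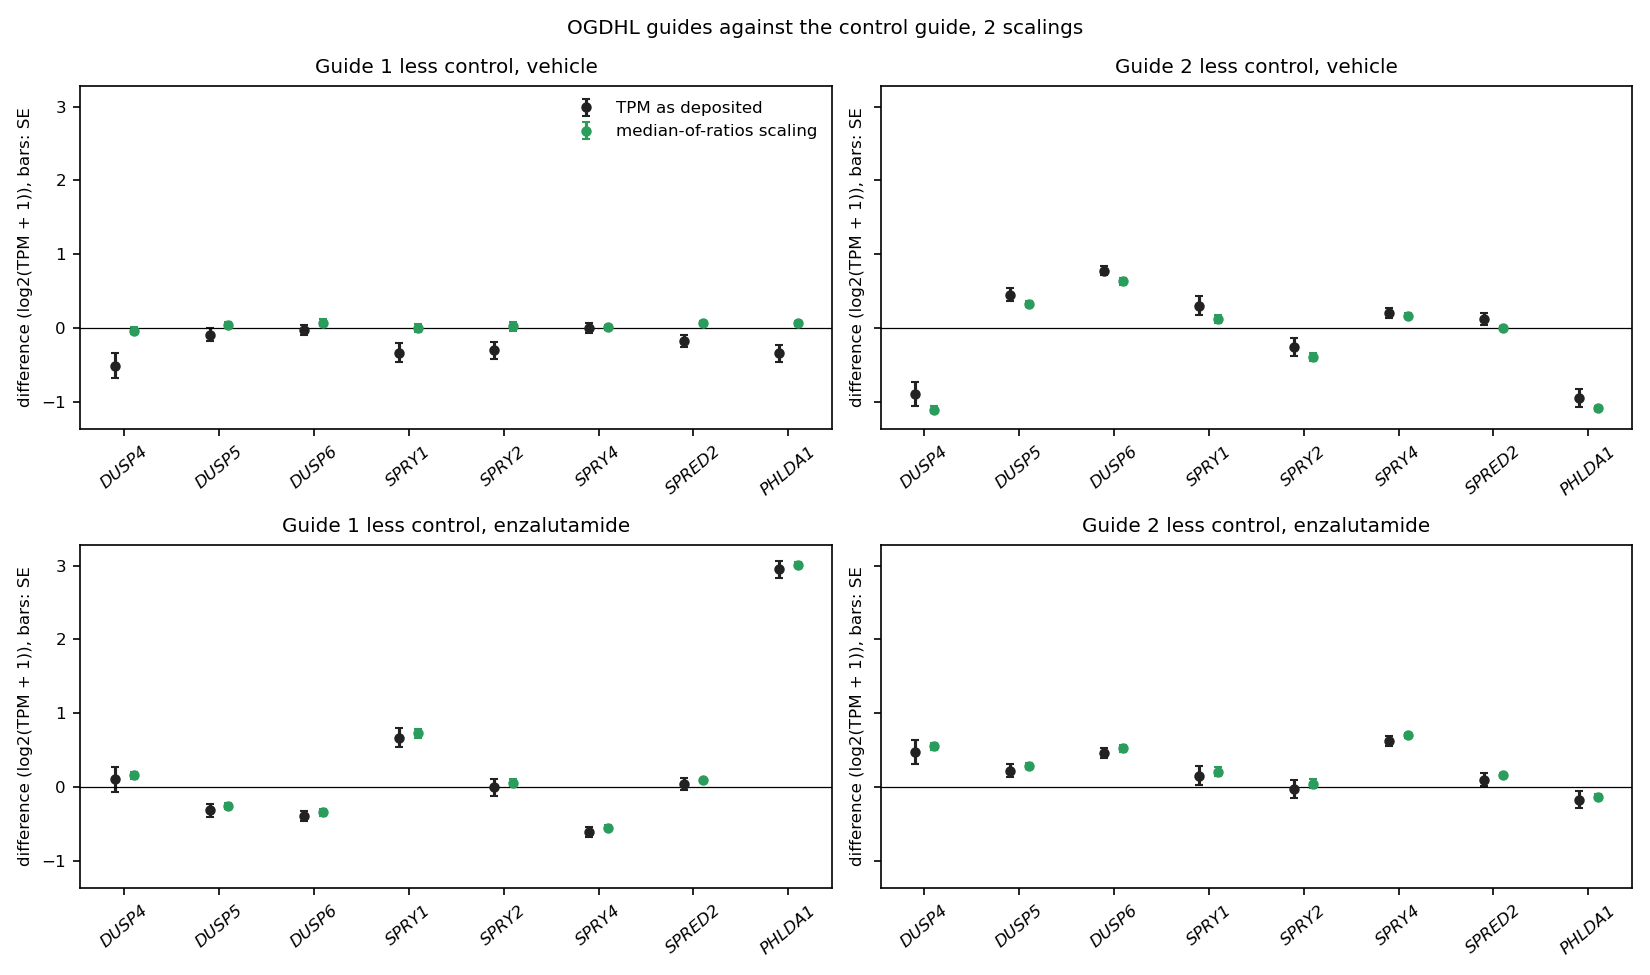
Difference between each OGDHL guide and the control guide on the log2(TPM + 1) scale, in vehicle and in enzalutamide, for TPM as deposited (black) and with median-of-ratios scaling (green); bars are the SE of the fit. The guide 1 vehicle differences move to between -0.04 and 0.07 with the scaling, and in enzalutamide SPRY4 lies at -0.61 with guide 1 and 0.62 with guide 2.

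The rest of the pathway was followed in 79 further genes of 4 lists, of which 56 were tested. In enzalutamide few were called with TPM as deposited, and more with median-of-ratios scaling. As deposited, 1 rose and 3 fell with guide 1, beside 2.15% and 4.91% of all genes, and 1 rose and 0 fell with guide 2, beside 0.678% and 0.574%. With guide 1, JUN, an AP-1 subunit, fell by 0.70 (limma adjusted p = 0.0073), from 31.0 ± 5.12 to 18.5 ± 1.35 TPM. With the drug in guide 1 cells 9 rose and 1 fell, beside 26.3% of all genes higher and 3.54% lower, so the share that rose was below the background. Among the 9 were the phosphatase gene DUSP2 (1.18), the ERK1 gene MAPK3 (0.53), the RAS gene HRAS (0.51) and JUN (0.53). All of these stayed called higher with median-of-ratios scaling. DUSP2 was then at 0.94 (limma adjusted p = 5.4e-04), MAPK3 at 0.22 (adjusted p = 0.0047), HRAS at 0.20 (adjusted p = 0.015) and JUN at 0.22 (adjusted p = 0.0016). In TPM as deposited, guide 1 vehicle replicates 1 and 2 were the low ones: HRAS had 11.7, 16.2 and 25.9 TPM in vehicle and 24.7 ± 0.993 TPM in enzalutamide. MAPK3 had 9.29, 12.2 and 18.9 TPM and then 19.2 ± 1.94 TPM, and DUSP2 had 2.06, 3.34 and 8.71 TPM and then 10.5 ± 0.838 TPM. In the interaction with guide 1, 3 were higher and 0 lower, beside 5.67% and 1.27% of all genes, among them ERRFI1, an inhibitor of the EGF receptor (0.62). With median-of-ratios scaling 6 rose and 16 fell for guide 1 in enzalutamide, beside 18.1% and 17.4% of all genes. For guide 2 in enzalutamide 11 rose and 1 fell, beside 10.3% and 7.26%. The scaled counts were 11 and 13 for the drug with guide 1, beside 24.5% and 23.9%, and 8 and 9 for its interaction, beside 16.5% and 17.1%.

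In vehicle, 32 of the 56 rose and 5 fell in the libraries labelled guide 2, beside 41.0% and 18% of all genes. With median-of-ratios scaling 32 rose and 16 fell, beside 40.1% and 37.3%. Among other ERK-responsive genes 11 of 14 rose and 1 fell: FOS rose by 2.32, from 1.69 ± 0.420 to 12.3 ± 1.07 TPM, JUNB rose by 1.94, and MYC, a growth regulator, changed by -1.69. Among other inhibitors 10 of 16 rose and 2 fell, with DUSP1 (1.45), DUSP14 (1.39) and DUSP8 (1.08). In the cascade 8 of 18 rose, a share near the background, and 0 fell as deposited, with HRAS (1.47), the adaptor SHC1 (1.24) and the adaptor GRB2 (0.58). With median-of-ratios scaling 8 rose and 6 fell in the cascade. Of receptors and ligands 3 of 8 rose and 2 fell, also near the background, with HBEGF, a ligand of the EGF receptor, going from 1.12 ± 0.0544 to 8.39 ± 0.684 TPM (2.14) and the receptor gene ERBB3 at -0.44. Scaled, 11 rose and 3 fell among other ERK-responsive genes, 10 and 4 among other inhibitors, and 3 and 3 among receptors and ligands.

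In guide 2 cells in enzalutamide 5 rose and 38 fell against vehicle, beside 11.2% and 48.3% of all genes. With median-of-ratios scaling 15 rose and 33 fell, beside 36.9% and 37.3%. HBEGF changed by -2.03, FOS by -2.00, JUNB and FOSL2, another AP-1 subunit, by -1.36 each, HRAS by -1.97, SHC1 by -1.85 and MAP2K2, a MEK gene, by -0.50 (adjusted p = 0.081 with median-of-ratios scaling, past the threshold no longer). The phosphatase genes DUSP14, DUSP3 and DUSP8 changed by -1.69, -1.16 and -1.16. In the interaction with guide 2, 4 were higher and 28 lower, beside 8.71% and 34.9% of all genes (14 and 29 scaled, beside 31.9% and 33.9%), with HBEGF (-2.04), HRAS (-1.70), SHC1 (-1.20), GRB2 (-0.59), FOS (-1.75), JUN (-1.58), FOSL2 (-1.57), DUSP14 (-1.32), DUSP8 (-1.20) and DUSP1 (-1.10) lower and ERBB3 higher (0.58). SPRY4, DUSP5 and DUSP6 were higher in enzalutamide than in vehicle in the same cells.

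With guide 1 in vehicle 0 rose and 33 of 56 fell, beside 57.5% of all genes called lower, so the count was at the background. With median-of-ratios scaling 12 rose and 18 fell, beside 23.4% and 21.1%. By the rule for named genes the examples were DUSP2 (-1.18), JUNB (-0.92), IER2, an immediate-early gene (-0.91), the RAF gene ARAF (-0.75), HRAS (-0.71), MAP2K2 (-0.69), ELK1, an ETS factor phosphorylated by ERK (-0.67), PEBP1, which encodes a RAF inhibitor (-0.65), and CIC (-0.62). All of these stayed called lower with median-of-ratios scaling, by smaller amounts. They ranged from DUSP2 (-0.80, limma adjusted p = 0.012) to PEBP1 (-0.17, adjusted p = 0.020), with JUNB and IER2 at -0.45 each and ARAF at -0.31. In TPM as deposited the low levels were in replicates 1 and 2, those with the high mitochondrial shares, and replicate 3 was near control. The part of the mitochondrial share in these calls was not tested. JUNB had 12.8, 21.8 and 40.6 TPM, against 43.4 ± 1.32 TPM in control vehicle libraries. ARAF had 5.49, 8.03 and 14.8 TPM against 15.4 ± 0.366 TPM, and IER2 had 9.01, 13.9 and 26.5 TPM against 29.1 ± 1.32 TPM.

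The genes most like DUSP4 and PHLDA1 were taken by Pearson correlation of log2(TPM + 1) over the 18 libraries, among 7713 genes reaching 5 TPM in a group mean. The libraries share groups and scaling, so these are descriptions. For DUSP4 they were ELOVL2 (r = 0.989), UGT2B10 (0.986), UGT2B17 (0.977), ST6GALNAC1 (0.975) and ELOVL5 (0.974). ELOVL2, a fatty acid elongase gene, had 6.12, 4.39 and 3.07 TPM in vehicle with the control guide, guide 1 and guide 2, and 0.0460, 0.257 and 0.0304 TPM in enzalutamide. UGT2B10 and UGT2B17 have near-identical relatives, so their values are uncertain.

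For PHLDA1 they were TSPAN13 (r = 0.979), DSC2 (0.960), NAP1L1 (0.954), the pseudogene NAP1L4P3 (0.953) and KLK3 (0.951). NAP1L1 and NAP1L4P3 may share reads, so their values are uncertain. KLK3 stayed at r = 0.954 with median-of-ratios scaling. KLK3 had 888, 843 and 772 TPM in the guide 1 enzalutamide libraries, the same 3 in which PHLDA1 was highest, and 67.7, 53.5 and 54.5 TPM in control enzalutamide libraries. Guide 2 enzalutamide libraries had 110, 102 and 106 TPM of KLK3, above control, while their PHLDA1 was below control. In these bulk samples a smaller share of cells with a transcript and less of it per cell cannot be told apart.

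**Figure D4:**
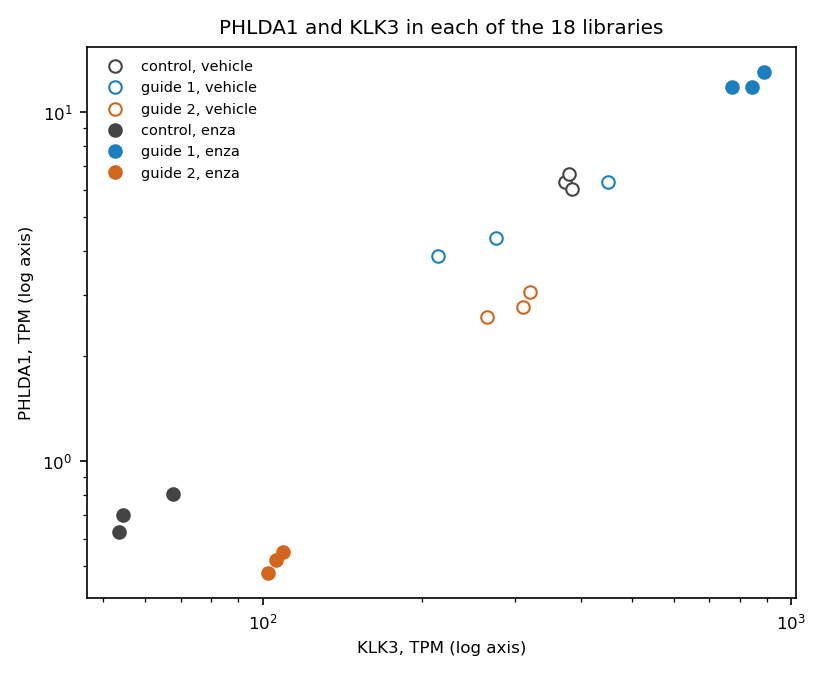
PHLDA1 against KLK3 in TPM (both log axes) in each of the 18 libraries; open points are vehicle and filled points enzalutamide. The 3 guide 1 enzalutamide libraries lie at the upper right, at 772 to 888 TPM of KLK3 and 11.8 to 13.0 TPM of PHLDA1, and the control and guide 2 enzalutamide libraries at the lower left.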

How the data were processed

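RNA was sequenced from 16D cells in 18 libraries. Per the labels' protocols, mRNA libraries that keep strand were made with a KAPA kit and read as paired ends. Per the submitters' processing notes, STAR and GRCh38 were used; versions, the counter and its strand setting were not found in the labels. The values deposited by the authors are TPM, each library summing to the same total. Depth is therefore unknown.

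Rows with no gene name (10345, with 4.24% to 9.68% of TPM) and 69 rows of 3 repeated symbols were dropped and 32 symbols with several rows summed, leaving 26900. The 13416 genes that reached 1 TPM in 3 or more libraries were fitted as log2(TPM + 1) with limma 3.58.1 in R 4.3.3, a mean per group, 12 residual degrees of freedom, a trended prior and Benjamini-Hochberg adjustment; an adjusted p under 0.05 was a call. The procedure was tested on simulated data. Tables and figures used Python 3.11.15, pandas 2.3.3 and matplotlib 3.10.9. The members, pathway lists and contrasts were chosen with earlier results of these data known. Named pathway genes were up to 3 per list and tested contrast, of largest change among calls with 5 TPM or more; OGDHL, KLK3 and the 5 genes most correlated with DUSP4 and with PHLDA1 were named too. The replicate numbers deviated together only for control and guide 1 in enzalutamide (correlations 0.25, 0.11 and 0.20), from the data and not the labels. Alternatives were pseudocounts of 0.1 and 5, filters, median-of-ratios scaling, removal of mitochondrially encoded genes, each comparison's own libraries, a replicate block and leaving out each library; fits without guide 1 vehicle replicates 1 and 2, and a block in the 6 libraries of guide 1 and control in enzalutamide, were chosen after seeing the data.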

Additional observations from a re-analysis of the deposited data

Results flagged for a closer look

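The drug response differed from that of control cells, by an interaction in limma, for SPRY1 with guide 1 (1.00), for SPRY4 with guide 1 (-0.61) and guide 2 (0.42, with the sign turned at a pseudocount of 0.1), and for DUSP6 with guide 1 (-0.36) and guide 2 (-0.32). The DUSP6 call with guide 1 was lost when any of 8 single libraries was left out, with only its own libraries and with a pseudocount of 0.1, and that with guide 2 with median-of-ratios scaling and with a pseudocount of 5. The guide 2 interactions rest on the vehicle libraries labelled guide 2, which had more OGDHL than controls and fewer rows at 0 than all other libraries. PHLDA1 was higher with enzalutamide in every guide 1 library (1.20) and lower in every control library than in any vehicle library of the same guide, and this difference was not tested, since PHLDA1 helped to choose the list.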

How the results depend on the processing

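Limits: depth is unknown, most members lie near or under 3 TPM, and scaling moves the median of all genes, most for guide 2 less guide 1 in vehicle (0.54 as deposited, 0.01 scaled). Of 1196 alternative values for counts and single members, 965 were unchanged in direction and side of the threshold, within 1.5 times for counts, or, untested, within the replicate spread. Among tested members 54 values turned sign, 16 of them called in at least 1 of the 2 fits compared. With a filter at 5 TPM, where 1 member at most was left to test, the number of members called was 1 for the drug with either guide and for either guide in vehicle and 0 for either guide in enzalutamide; no member was left for the interactions. For guide 1 in vehicle the number was 1 of 9 tested with no filter, 1 of 7 with median-of-ratios scaling and 1 of 8 with mitochondrially encoded genes removed. It was 0 of 7 with only its own libraries. For guide 2 in enzalutamide it was 1 of 7 with a pseudocount of 0.1, 6 of 7 with median-of-ratios scaling and 6 of 8 with mitochondrially encoded genes removed. That removal gave 7 of 8 for the drug with guide 1 and for guide 2 in vehicle, and 4 of 7 for the interaction with guide 2. The same interaction had 1 of 6 with a pseudocount of 0.1 or 5 and 4 of 8 with no filter. More members entered with no filter or with that removal than in the main fit. Shares of all genes are given only for the main fit and median-of-ratios scaling. Leaving out 1 library gave 4 to 6 for the drug with guide 1, 5 with guide 2, 0 to 5 and 3 to 5 for guides 1 and 2 in vehicle, 3 to 4 and 2 in enzalutamide, and 2 to 5 and 2 for the interactions.

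With median-of-ratios scaling the sign turned with the drug for SPRY1 (-0.17) and SPRED2 (-0.049) in guide 1 cells and for SPRED2 (0.088) and SPRY2 (0.15) in guide 2 cells. It turned with guide 1 in vehicle for DUSP5 (0.044), DUSP6 (0.072), SPRED2 (0.067) and SPRY2 (0.021), and with guide 2 in vehicle for SPRED2 (-0.0010). It turned for SPRY2 in enzalutamide with guide 1 (0.055) and guide 2 (0.043), and in the interaction with guide 2 for SPRED2 (0.16) and SPRY1 (0.087). Untested, guide 2 less guide 1 in vehicle turned for SPRED2 (-0.068) and SPRY2 (-0.42), and PHLDA1 turned with guide 1 in vehicle (0.064). With mitochondrially encoded genes removed the sign turned with the drug for SPRY1 (-0.21) and SPRED2 (-0.075) in guide 1 cells and SPRY2 (0.0060) in guide 2 cells. It turned with guide 1 in vehicle for DUSP5 (0.076), DUSP6 (0.14), SPRED2 (0.095), SPRY1 (0.0022) and SPRY2 (0.032), for SPRY2 in enzalutamide with guide 1 (0.075) and guide 2 (0.063), for SPRED2 in the interaction with guide 2 (0.055), and, untested, for SPRY2 for guide 2 less guide 1 in vehicle (-0.34).

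Without guide 1 vehicle replicates 1 and 2 the sign turned with the drug for SPRY1 (-0.31) and SPRED2 (-0.060), with guide 1 in vehicle for DUSP5 (0.11), DUSP6 (0.075), SPRY1 (0.025) and SPRY2 (0.0066), and in the interaction for SPRY2 (-0.013). With median-of-ratios scaling as well it turned for SPRY1 with the drug (-0.22) and with guide 1 in vehicle for DUSP4 (0.0079), DUSP5 (0.12), DUSP6 (0.078), SPRED2 (0.012), SPRY1 (0.047) and SPRY2 (0.028). The SPRY4 interaction with guide 2 turned with a pseudocount of 0.1 (-0.42). Leaving out 1 library gave values on both sides of 0 for the drug in guide 1 cells in SPRY1 (-0.10 to 0.23) and SPRY2 (-0.12 to 0.12), for guide 1 in vehicle in DUSP6 (-0.085 to 0.022) and SPRY4 (-0.0029 to 0.0039), for guide 1 in enzalutamide in SPRED2 (-0.022 to 0.10) and SPRY2 (-0.075 to 0.072), for guide 2 in enzalutamide in SPRY2 (-0.094 to 0.053), and for the interaction with guide 2 in SPRED2 (-0.086 to 0.040). The cause of these changes was not tested.

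With the replicate block in the fit of all libraries the number of members called was 4 and 5 for the drug with guides 1 and 2, 2 and 4 for guides 1 and 2 in vehicle, 3 and 2 in enzalutamide, and 3 and 2 for the interactions; SPRY2 with guide 1 in vehicle (adjusted p = 0.053) and DUSP5 with guide 1 in enzalutamide were the calls lost. With the block in the own libraries of guide 1 and control in enzalutamide, 4 were called. Shares of all genes are not given for the block fits, so these counts do not compare the members with other genes.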
